A study of Mus musculus with 24 samples.

Results

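Loxl2, Entpd4, Tmem181b-ps, Nlrp1a and Nlrp1c-ps are 5 genes whose RNA level differed between Trp53+/+ and Trp53-/- mouse spleen cells before any radiation. None of them is in the list of p53 pathway genes used below, and whether p53 regulates them was not tested. They are 5 of the 21671 genes in the files, and were chosen by their measured difference between the genotypes, so that this difference is given here as a description without a test. RNA-Seq had been run on ribosomal RNA-depleted total RNA of splenic B cells, which were bound by beads against B220, and of the unbound non-B cells, which are rich in T cells. The mice were 8 weeks old and either mock-treated (called unstressed below) or killed 4 h after 7 Gy of whole-body ionizing radiation (IR). Each of the 8 groups, formed by genotype, cell type and treatment, held 4 Trp53+/+ or 2 Trp53-/- samples, 24 in all. The strain label of every sample is C57/Bl6, the wild-type mice came from Harlan and the Trp53-/- mice were p53 knockout mice kept on C57/Bl6. Nothing in the labels says which samples came from one animal, so p-values measure the spread between these samples. The sources used here do not give the substrain of either stock.

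p53 is a transcription factor that is kept at low levels in unstressed cells and that, after DNA damage, activates genes of cell cycle arrest, apoptosis and DNA repair. A knockout line differs from its wild-type controls at the targeted gene, and it can also differ at DNA that is inherited with that gene or that the breeding stocks do not share. The 5 genes have unrelated functions. Nlrp1a and its neighbour Nlrp1b encode cytosolic sensors of the innate immune system that assemble the inflammasome, a complex that activates caspase-1 and releases interleukin-1 beta, and Nlrp1c-ps is a pseudogene copy of them. Loxl2 encodes a secreted amine oxidase that crosslinks collagen. Entpd4 encodes a nucleotide diphosphatase of the Golgi and lysosomes, and Tmem181b-ps is a copy of the transmembrane protein gene Tmem181.

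The genes occupy 3 places in the genome (build mm9, annotation GENCODE vM1). On chromosome 11, Nlrp1a (chr11:70904699-70958290) and Nlrp1c-ps (chr11:71055932-71098734) flank Nlrp1b, and all 3 lie on the minus strand. Trp53 itself (chr11:69393861-69405375) is 1.499 Mb from Nlrp1a. On chromosome 14, Entpd4 (chr14:69955208-69985327) and Loxl2 (chr14:70008978-70095640) are neighbours on the plus strand with 23.65 kb between them. On chromosome 17, Tmem181b-ps (chr17:6439626-6489526, minus strand) is 4.18 kb from Dynlt1b (chr17:6429221-6435441, plus strand), a light chain gene of the dynein motor.

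The letters just before 4 of these genes are shown because p53 binds DNA near many of its target genes. Each run is the 300 bases before the annotated gene start, read 5′ to 3′ on the gene's strand, and capitals mark a match to the p53 decamer consensus, searched on both strands.
Nlrp1c-ps upstream (chr11:71098735-71099034): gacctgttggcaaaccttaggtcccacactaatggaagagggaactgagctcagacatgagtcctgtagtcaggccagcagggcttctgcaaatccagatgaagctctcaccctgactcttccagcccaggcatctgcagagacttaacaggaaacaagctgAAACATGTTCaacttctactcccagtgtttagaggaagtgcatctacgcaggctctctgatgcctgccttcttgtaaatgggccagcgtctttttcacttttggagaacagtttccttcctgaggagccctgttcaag
Nlrp1b upstream (chr11:71044236-71044535): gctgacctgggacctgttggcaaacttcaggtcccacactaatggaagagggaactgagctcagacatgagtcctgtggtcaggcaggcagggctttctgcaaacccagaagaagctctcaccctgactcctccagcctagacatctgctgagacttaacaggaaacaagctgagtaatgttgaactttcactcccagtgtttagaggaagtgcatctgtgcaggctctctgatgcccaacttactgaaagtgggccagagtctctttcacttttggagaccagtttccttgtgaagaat
Nlrp1a upstream (chr11:70958291-70958590): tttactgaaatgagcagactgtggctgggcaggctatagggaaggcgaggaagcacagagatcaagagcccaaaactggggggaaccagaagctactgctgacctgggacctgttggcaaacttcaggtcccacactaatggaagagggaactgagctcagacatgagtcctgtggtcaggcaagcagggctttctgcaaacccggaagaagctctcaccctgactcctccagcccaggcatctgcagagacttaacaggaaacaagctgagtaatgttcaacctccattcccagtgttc
Loxl2 upstream (chr14:70008678-70008977): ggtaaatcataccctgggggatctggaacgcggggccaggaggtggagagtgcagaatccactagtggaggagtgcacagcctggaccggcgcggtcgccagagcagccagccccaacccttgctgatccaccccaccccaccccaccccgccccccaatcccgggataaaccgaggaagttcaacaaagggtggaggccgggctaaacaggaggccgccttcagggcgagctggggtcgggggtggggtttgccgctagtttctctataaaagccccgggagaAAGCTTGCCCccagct
The 3 Nlrp1 windows shared runs of letters, and of the 3 only that of Nlrp1c-ps held a decamer. Loxl2 held 1 decamer as well, and Entpd4 and Tmem181b-ps held none. A decamer was present in 7.76% of 22388 such windows, those of protein-coding genes and polymorphic pseudogenes. No window of the 5 genes held a pair of decamers with a spacer of up to 13 bases, the form of a complete p53 site, which 0.0402% of all windows held. These 300 bases are a small part of the promoter region in which the paper counted p53 binding.

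The chromosome 17 genes have near-identical copies nearby, so that short reads cannot be assigned to a copy with certainty. The first 90 coding bases of Tmem181b-ps and its copy Tmem181a are shown with the mismatches in capitals, followed by those of Dynlt1b and its copy Dynlt1a.
Tmem181b-ps: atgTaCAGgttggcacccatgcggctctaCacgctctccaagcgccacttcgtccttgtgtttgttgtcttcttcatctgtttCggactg
Tmem181a: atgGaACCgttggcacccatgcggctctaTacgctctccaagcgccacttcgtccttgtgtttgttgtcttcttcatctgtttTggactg
Dynlt1b: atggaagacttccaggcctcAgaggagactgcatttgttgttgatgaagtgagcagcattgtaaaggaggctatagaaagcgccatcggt
Dynlt1a: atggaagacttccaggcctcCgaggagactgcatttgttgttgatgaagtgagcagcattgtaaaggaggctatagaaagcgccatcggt
Over the whole coding sequence, Tmem181b-ps and Tmem181a differed at 13 of 1425 bases (99.09% identity) and Dynlt1b and Dynlt1a at 1 of 342 (99.71%). Of the 32-base windows in the exons of Tmem181b-ps, 85.8% occurred elsewhere in the genome, each of those places being on chromosome 17, against 7.27% for Nlrp1c-ps, 5.84% for Entpd4 and 4.32% for Loxl2. Nlrp1a stood at 11.9% by this count. Its coding sequence was 85.76% identical to that of Nlrp1b and 88.08% identical to that of Nlrp1c-ps. The RPKM of Tmem181b-ps and Dynlt1b are therefore uncertain as values of 1 copy.

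The labels were first checked on Trp53. In unstressed cells its RPKM (reads per kilobase of gene per 1 M exon reads) was 21.6 and 21.7 in Trp53-/- B cells and 23.97 and 25.04 in Trp53-/- non-B cells, against 43.4 to 49.5 in the 8 Trp53+/+ samples. The knockout cells thus still gave Trp53 reads, and after IR the non-B groups overlapped (34.6 and 36.4 in Trp53-/-, 35.0 to 38.6 in Trp53+/+). The markers matched the sorted fractions, with summed B cell markers of 675 to 881 RPKM in B against 181 to 470 in non-B samples and summed T cell markers of 35.1 to 67.7 against 245 to 517. Depth, estimated from the spacing of low RPKM values, was 4.74 to 10.97 M exon reads per library. All 8 Trp53-/- libraries had the male pattern (Ddx3y at 36.3 to 49.8 RPKM and Xist at 0.171 to 0.892), whereas 13 of 16 Trp53+/+ libraries had Xist at 78.4 to 126 RPKM. In the irradiated Trp53+/+ groups, up to 47.2% (B) and 51.3% (non-B) of 1434 olfactory and vomeronasal receptor genes had an RPKM above 0, against 5.3% to 13.04% elsewhere. In 5 irradiated Trp53+/+ libraries, 2 of B and 3 of non-B cells, this share was over 20%, and they are called receptor-rich below.

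Nlrp1c-ps differed most between the genotypes. In unstressed B cells it measured 3.15, 4.41, 4.40 and 2.80 RPKM in the Trp53+/+ samples and 0.032 and 0.033 in the Trp53-/- samples, and in unstressed non-B cells 7.32, 7.42, 6.598 and 6.52 against 0.126 and 0.201. After IR it measured 3.79, 3.73, 4.14 and 3.65 in Trp53+/+ B cells against 0.033 and 0.031, and 16.0, 19.0, 22.3 and 27.6 in Trp53+/+ non-B cells against 0.194 and 0.118. The Trp53-/- level in B cells equals about 1 read per library. In reads, the ratio of Trp53+/+ to Trp53-/- was 112 in unstressed B cells (exact 95% interval 30.8 to 926), 42.7 in unstressed non-B cells (23.1 to 89.3), 119 in irradiated B cells (32.7 to 986) and 132 in irradiated non-B cells (72.0 to 277). These intervals cover counting error only.

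Nlrp1a was also lower without p53, and far more so in non-B cells. Its RPKM in unstressed B cells was 1.25, 0.80, 0.881 and 0.801 in Trp53+/+ samples and 0.398 and 0.457 in Trp53-/- samples, a ratio of the means of 2.18. In unstressed non-B cells it was 9.30, 8.11, 4.34 and 6.19 against 0.587 and 0.888, a ratio of 9.47. Irradiated B cells held 1.34, 1.20, 0.72 and 0.817 against 0.283 and 0.371, and irradiated non-B cells held 10.7, 10.7, 11.2 and 10.3 against 0.608 and 0.469. The groups did not overlap in any of the 4 comparisons, but in B cells the levels of Nlrp1a were low in every sample. The lowest Trp53+/+ B cell sample (0.72, irradiated) was above the highest Trp53-/- B cell sample (0.457, unstressed). It was below the highest Trp53-/- non-B sample (0.888, unstressed).

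Loxl2 was higher without p53. Unstressed B cells measured 12.6 and 7.04 RPKM in Trp53-/- against 1.16, 1.32, 0.858 and 0.974 in Trp53+/+ samples, and unstressed non-B cells 5.70 and 9.34 against 0.828, 1.24, 1.34 and 1.33. After IR the values were 4.599 and 6.32 against 1.66, 2.18, 1.22 and 1.398 in B cells, and 6.08 and 7.81 against 1.58, 1.29, 1.52 and 1.35 in non-B cells. Unstressed B cells had a mean of 9.83 ± 3.95 (SD, n = 2) without p53 against 1.08 ± 0.203 (SD, n = 4) in Trp53+/+ cells. Still, the lowest of the 8 Trp53-/- samples (4.599) was above the highest of the 16 Trp53+/+ samples (2.18). The ratio of the means ran from 3.38 in irradiated to 9.12 in unstressed B cells. Summed stromal markers were 76.9 to 78.8 RPKM in unstressed Trp53-/- and 71.2 to 76.3 in unstressed Trp53+/+ B cells; their part in the Loxl2 level was not tested.

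Entpd4, the neighbour of Loxl2, was higher without p53 by a smaller factor from a much higher level. Unstressed B cells measured 35.7 and 28.7 RPKM in Trp53-/- against 21.6, 18.4, 20.2 and 18.9 in Trp53+/+ samples, and unstressed non-B cells 31.6 and 29.0 against 14.8, 14.9, 18.3 and 19.8. After IR it measured 33.9 and 35.9 against 14.5, 14.5, 14.5 and 15.0 in B cells, and 28.7 and 29.4 against 14.9, 17.7, 15.6 and 19.6 in non-B cells. Over all samples, the Trp53+/+ levels of Entpd4 ended at 21.6 and the Trp53-/- levels began at 28.7. The ratio of the means was 1.63 and 1.79 in unstressed B and non-B cells and 2.39 and 1.71 after IR.

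Tmem181b-ps was higher without p53 too, more so in non-B cells. Unstressed B cells measured 18.2 and 16.98 RPKM in Trp53-/- against 6.46, 6.70, 6.56 and 7.91 in Trp53+/+ samples, and unstressed non-B cells 28.2 and 25.01 against 7.14, 7.53, 6.76 and 6.45. After IR the values were 9.16 and 12.3 against 5.71, 6.15, 5.55 and 5.13 in B cells, and 20.4 and 28.2 against 7.39, 5.45, 6.97 and 8.77 in non-B cells. The narrowest gap was in irradiated B cells, where the ratio of the means was 1.91, and the widest in unstressed non-B cells, where it was 3.82.

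**Figure D1:**
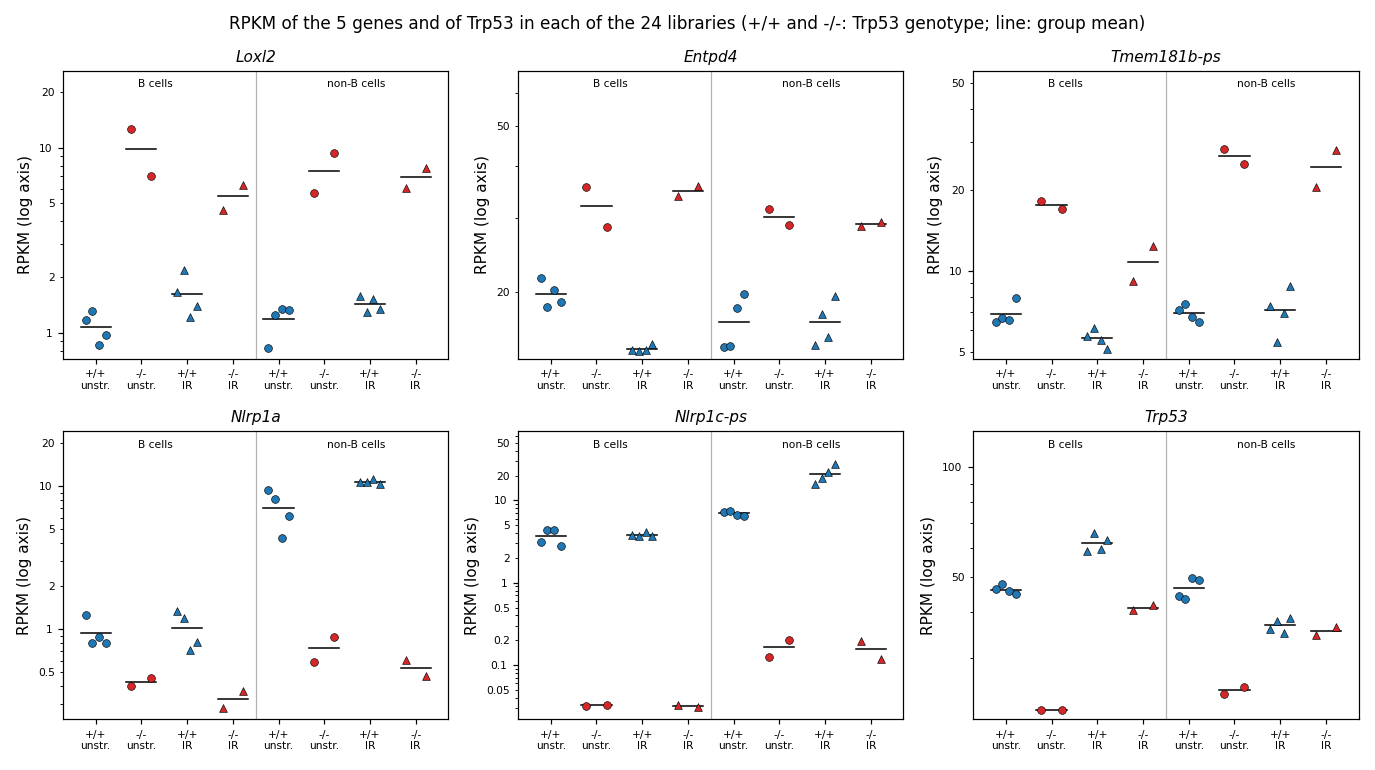
RPKM (log axis) of Loxl2, Entpd4, Tmem181b-ps, Nlrp1a, Nlrp1c-ps and Trp53 in each library, by group (blue Trp53+/+, red Trp53-/-; circles unstressed, triangles irradiated; lines are group means, n = 4 and 2). For the 5 genes the red and blue points stay apart in both cell types, with Nlrp1a and Nlrp1c-ps lower and the other genes higher in Trp53-/- cells, whereas Trp53 itself overlaps in irradiated non-B cells.

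All 5 genes kept their Trp53-/- and Trp53+/+ samples apart, in an unchanged direction, in all 4 comparisons of genotypes. Loxl2, Entpd4 and Tmem181b-ps were above, and over all genes tested the Trp53-/- samples lay above every Trp53+/+ sample for 10.1% in unstressed B, 9.49% in unstressed non-B, 31.1% in irradiated B and 28.7% in irradiated non-B cells. Nlrp1a and Nlrp1c-ps were below, as were 8.34%, 6.2%, 18.4% and 24.7% of all genes in that order. In all 4 comparisons together, 44 of 13395 genes (0.328%) lay above and 29 (0.216%) below. Since the 5 genes were selected for such differences, nothing follows from their place in these counts. All 8 Trp53-/- libraries and 3 Trp53+/+ libraries had the male pattern, the latter in irradiated B, unstressed non-B and irradiated non-B cells. Against these 3 libraries alone, the log2 difference (log2 of RPKM + 0.5) in that order was 1.64, 2.10 and 2.00 for Loxl2 and -2.97, -3.41 and -5.42 for Nlrp1c-ps, against 1.499, 2.23 and 1.94 and -3.02, -3.49 and -5.02 with all Trp53+/+ libraries. For Entpd4 it was 1.19, 0.60 and 0.56 against 1.23, 0.83 and 0.77, and for Tmem181b-ps 0.98, 1.96 and 1.4025 against 0.86, 1.86 and 1.698. For Nlrp1a it was -0.67, -2.44 and -3.38 against -0.86, -2.56 and -3.44. Each of these comparisons rests on 1 Trp53+/+ library. In unstressed B cells all 4 Trp53+/+ libraries had Xist at 95.7 to 118 RPKM, whereas both Trp53-/- libraries had the male pattern. Genotype and sex cannot be told apart there.

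Few genes passed a test between the genotypes before IR. With 2 Trp53-/- against 4 Trp53+/+ samples, a gene that did not pass could still differ. The test used was limma, and a gene passed when its adjusted p was under 0.05 and its log2 fold change was beyond 0.58 in either direction. By this rule 8 genes passed in unstressed B cells (0.0574% of 13945) and 8 in unstressed non-B cells (0.0566% of 14138), against 17% and 20.6% after IR. Each count of 8 includes 4 of the chosen genes, and nothing is read from their calls. The other genes were Trp53, Dynlt1b, Mir701 and Zmat3 in B cells and Trp53, Dynlt1b, Mmrn1 and Phlda3 in non-B cells. Apart from Trp53 and Dynlt1b, they are named after their values were seen. Zmat3 and Phlda3 are p53 target genes and were lower without p53, Zmat3 by -0.97 in B cells and Phlda3 by -1.91 in non-B cells on the log2 scale. Mir701 in B cells had 7.14, 6.85, 8.41 and 8.60 RPKM in Trp53+/+ against 3.00 and 3.12 in Trp53-/- samples. Of these other genes, Dynlt1b passed in each of the 4 comparisons.

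Dynlt1b was an on/off difference. It was listed at 0 in all 16 Trp53+/+ libraries and measured 3.09 to 5.81 RPKM in the 8 Trp53-/- libraries, about 21.8 to 42.5 reads each. Its copy Dynlt1a was present in both genotypes, at 2.00 to 5.39 RPKM in Trp53+/+ and 1.35 to 4.90 in Trp53-/- libraries, and Tmem181a, the copy of Tmem181b-ps, at 0.891 to 3.84 and 0.849 to 4.44. Neither copy passed the test in any comparison of genotypes (limma, adjusted p of 0.143 to 1 for Dynlt1a and 0.654 to 1 for Tmem181a). Mmrn1 on chromosome 6, which encodes multimerin 1 of platelets and endothelium and was named after its values were seen, was likewise listed at 0 in all 16 Trp53+/+ libraries and had 0.116 to 2.74 RPKM in the 8 Trp53-/- libraries. Among all 21671 genes, 3 were at 0 in every Trp53+/+ and above 0 in every Trp53-/- library, and 1 was the other way round. Loss of p53 and a difference between the breeding stocks cannot be told apart in this design, nor can sex in unstressed B cells.

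**Figure D2:**
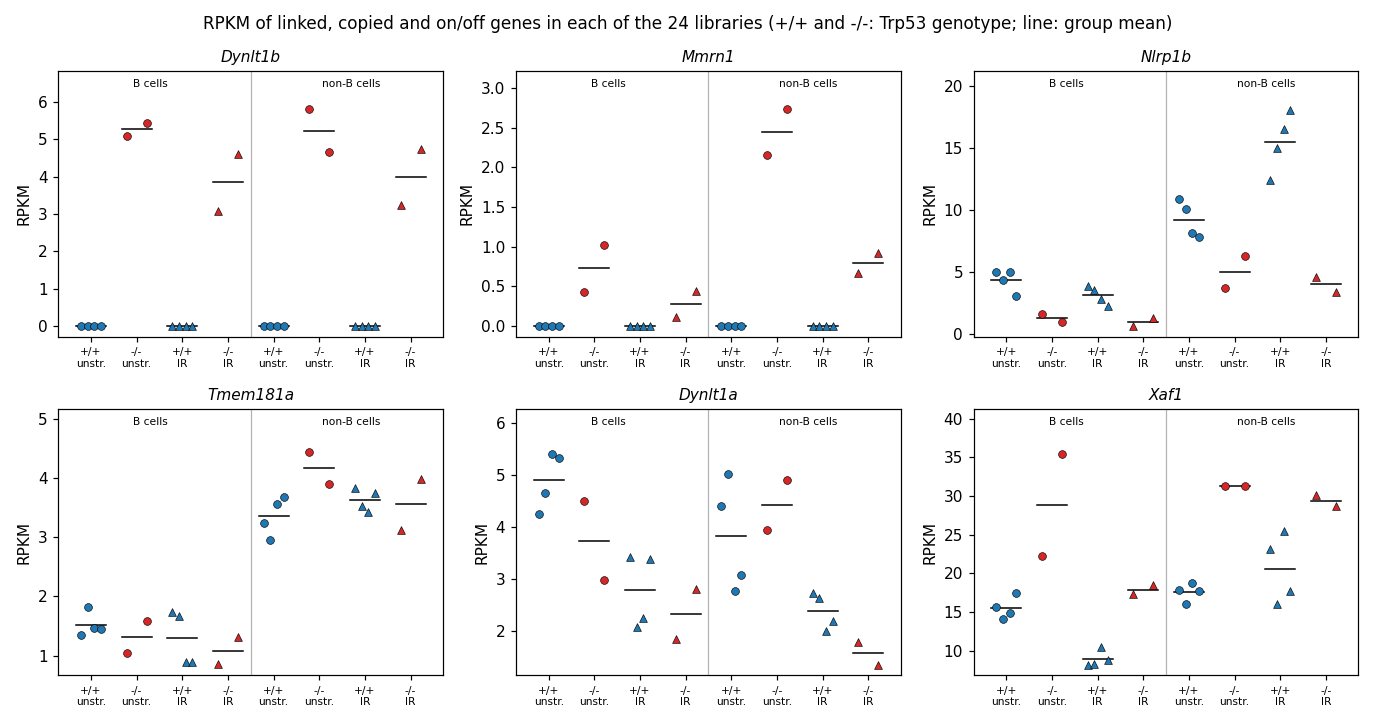
RPKM of Dynlt1b, Mmrn1, Nlrp1b, Tmem181a, Dynlt1a and Xaf1 in each library (blue Trp53+/+, red Trp53-/-; circles unstressed, triangles irradiated; lines are group means, n = 4 and 2). Dynlt1b and Mmrn1 are at 0 in the 16 Trp53+/+ libraries, whereas the copies Tmem181a and Dynlt1a overlap between genotypes in most groups.

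The genes around the 5 were then compared, to see how far the difference reached along each chromosome. Within 1 Mb of the genes or of Trp53, and counting a neighbour when it passed the test in an unchanged direction in at least 2 of the 4 comparisons of genotypes, 8 of 108 neighbours were counted on chromosome 11 (7.41%), 4 of 28 on chromosome 14 (14.3%) and 2 of 16 on chromosome 17, against 7.47% of all 14688 genes tested. Of these 14 neighbours, Dynlt1b alone passed in unstressed cells. Nlrp1b, which lies between Nlrp1a and Nlrp1c-ps, was lower in Trp53-/- cells in all 4 comparisons, with 3.06 to 5.00 RPKM against 0.935 and 1.59 in unstressed B cells and 7.77 to 10.9 against 3.64 and 6.22 in unstressed non-B cells. Its log2 difference was -1.46 and -0.87 there (limma, adjusted p = 0.193 and 0.655) and passed after IR, at -1.35 in B cells (adjusted p = 0.0021) and -1.84 in non-B cells (adjusted p = 3e-04).

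The other neighbours counted passed in irradiated cells only, and in unstressed cells their log2 differences lay within 0.59 of 0, Aloxe3 excepted. On chromosome 11, Aloxe3, a lipoxygenase gene, was lower by -1.43 and -1.89 on the log2 scale in irradiated B and non-B cells and stood at -1.35 and -0.71 in unstressed cells, where it did not pass. Ctc1 (telomere maintenance), Kif1c (a kinesin) and Inca1 were lower by -2.30, -1.59 and -1.02 in irradiated Trp53-/- B cells, and Chd3os, Rangrf and Bcl6b were higher by 2.01, 1.119 and 0.92. On chromosome 14, Tnfrsf10b, the death receptor gene 71.6 kb beyond Loxl2 and a known p53 target, was lower by -3.31 in irradiated B and -2.07 in irradiated non-B cells and by -0.05 and -0.01 in unstressed cells. Without the 5 receptor-rich libraries, the count on chromosome 14 was 2. Bmp1 and Slc39a14 were lower by -1.75 and -1.24 and Rhobtb2 was higher by 0.92 in irradiated B cells. On chromosome 17, Rps6ka2, a kinase gene, was lower by -1.03 and -1.22 after IR. Of the 73 genes whose genotypes stayed apart in all 4 comparisons, 10 lay on chromosome 11 (13.7%, against 8.37% of the genes tested), and among these 10 are Nlrp1a and Nlrp1c-ps, which were chosen for this pattern. Xaf1, 1.02 Mb past Nlrp1c-ps, is also among them and was above Trp53+/+ in each of the 4 comparisons (17.3 to 35.5 against 8.21 to 25.4 RPKM over all samples). Loss of p53 and inherited differences in DNA linked to Trp53 cannot be told apart here.

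**Figure D3:**
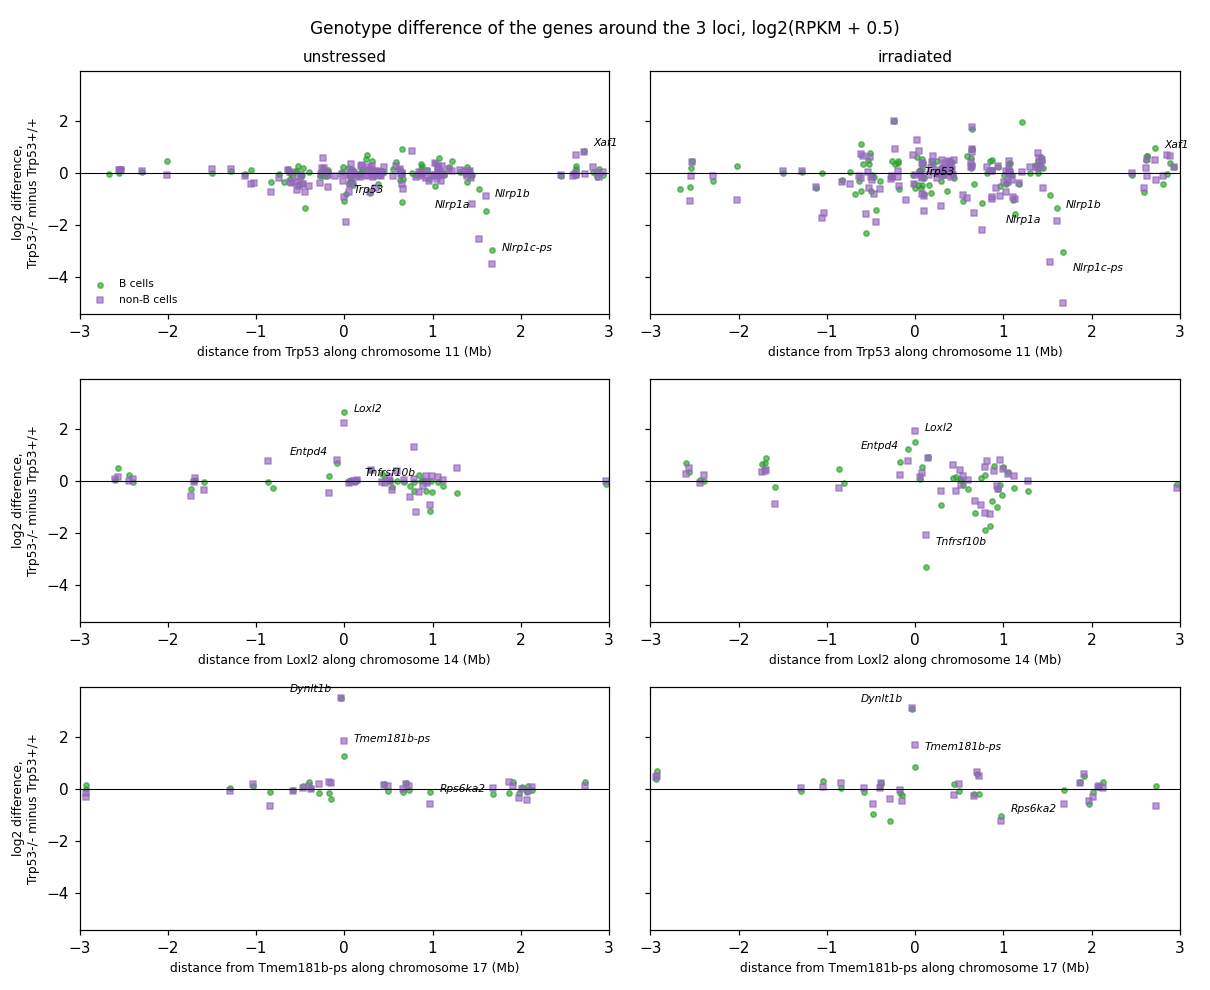
Log2 difference of RPKM + 0.5, Trp53-/- minus Trp53+/+, of genes within 3 Mb of Trp53, Loxl2 and Tmem181b-ps, by distance in Mb (green circles B cells, purple squares non-B cells; left unstressed, right irradiated). In unstressed cells the 5 genes, Nlrp1b and Dynlt1b stand away from 0 among neighbours that mostly lie near it, and after IR neighbours such as Tnfrsf10b move as well.

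The genes were chosen by differences between genotypes within each treatment, so all samples entered the choice. Unstressed and irradiated samples of 1 genotype were not compared directly for it, but genes were sought whose difference held in both treatments. The response to IR was then tested within each genotype. These tests reuse the same values and are not independent of the choice. In Trp53+/+ B cells 0 of 5 genes passed (2 with an unadjusted p under 0.05), against 24.5% of all genes. Entpd4 fell by 0.42 there on the log2 scale (95% interval -0.58 to -0.25, limma, adjusted p = 0.00056), with all 4 irradiated samples below all 4 unstressed samples, but by less than the fold threshold. In Trp53+/+ non-B cells 1 of 5 genes passed, against 9.79% of all genes. This gene was Nlrp1c-ps, which rose from 6.96 ± 0.47 to 21.2 ± 4.95 RPKM (SD, n = 4 in each group). The log2 fold change was 1.52 ± 0.166 (SE; 95% interval 1.15 to 1.88; limma, adjusted p = 0.00014). Its neighbour Nlrp1b rose by 0.72 (adjusted p = 0.022), but did not pass without the 3 receptor-rich libraries (0.69, adjusted p = 0.263). Nlrp1a had a fold change of 0.63 that did not pass (adjusted p = 0.0513; 0.0173 to 0.375 over the alternatives tried), though its 4 irradiated samples (10.3 to 11.2) were above its 4 unstressed samples (4.34 to 9.30). Without the 3 receptor-rich libraries the log2 fold change of Nlrp1c-ps was 1.39 (adjusted p = 0.0177), resting on 1 irradiated sample.

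In Trp53-/- B cells 1 of 5 genes passed, against 24.2% of all genes. Tmem181b-ps fell by 0.70 on the log2 scale (95% interval -1.04 to -0.36, limma, adjusted p = 0.0034), and without irradiated replicate 1 by 0.50, which is under the fold threshold. Loxl2 had a log2 fold change of -0.75 in those cells (95% interval -1.39 to -0.12, adjusted p = 0.0585), its irradiated samples (4.599 and 6.32) lying below its unstressed samples (12.6 and 7.04). In Trp53-/- non-B cells 0 of 5 genes passed and 0 had an unadjusted p under 0.05, against 0.488% of all genes called, with log2 fold changes from -0.25 for Nlrp1a to -0.02 for Nlrp1c-ps. Nlrp1c-ps had about 2.96 to 6.94 reads per library there. Its RPKM of 0.118 to 0.201 was under the 0.5 added before the log, so a change could hardly show.

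**Figure D4:**
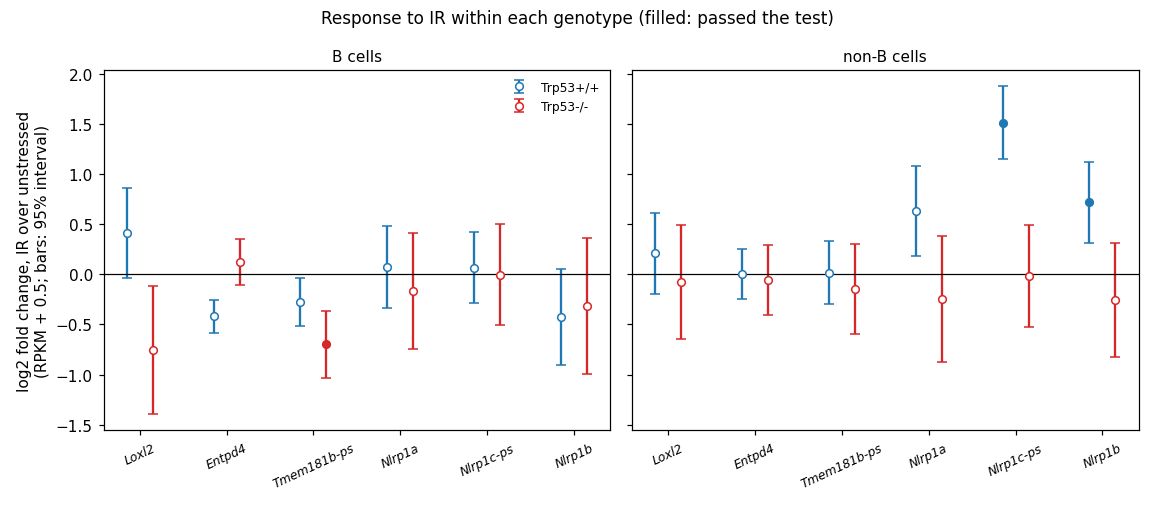
Log2 fold change of RPKM + 0.5 from unstressed to irradiated cells within Trp53+/+ (blue, n = 4 and 4) and Trp53-/- (red, n = 2 and 2) samples for the 5 genes and Nlrp1b, with 95% intervals; filled points passed the test. Nlrp1c-ps (1.52) and Nlrp1b (0.72) in Trp53+/+ non-B cells and Tmem181b-ps (-0.70) in Trp53-/- B cells are filled.

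The difference between the genotypes in the response to IR (Trp53+/+ minus Trp53-/-, log2 scale) is made up of the genotype differences that chose the genes, and is given as a description. In B cells it was 1.17 for Loxl2 (95% interval 0.38 to 1.95) and -0.54 for Entpd4 (-0.83 to -0.26), and leaving out 1 sample moved it between 0.77 and 1.57 for Loxl2 and between -0.70 and -0.39 for Entpd4. In non-B cells it was 1.53 for Nlrp1c-ps (95% interval 0.90 to 2.16) and 1.402 without the receptor-rich libraries. A response of Nlrp1c-ps in Trp53-/- non-B cells could hardly show at its low level, and 1.53 is close to the Trp53+/+ fold change of 1.52. For Loxl2 the difference in B cells rests on fold changes of 0.41 in Trp53+/+ and -0.75 in Trp53-/- cells, neither of which passed. In non-B cells the interval was -0.41 to 0.99 for Loxl2 and 0.10 to 1.66 for Nlrp1a. By an adjusted p under 0.05, limma counted 2 of 5 genes in B cells, against 18.6% of all genes, and 1 of 5 in non-B cells, against 7.33%, and nothing is read from these counts.

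B and non-B cells were compared in unstressed mice, with all samples treated as independent. Both fractions of a spleen may be among them, which the labels do not state. The unstressed Trp53+/+ samples numbered 4 were not from 1 mouse, with Xist at 98.6 RPKM in B and 0.617 in non-B cells. Between Trp53+/+ B and non-B samples of the same number, deviations from group means correlated at -0.066 to 0.358. In Trp53+/+ cells 2 of 5 genes passed, against 24.7% of all genes. Nlrp1a was higher in non-B cells by 2.35 ± 0.192 (SE; log2 scale, limma, adjusted p = 7.9e-09) and Nlrp1c-ps by 0.85 ± 0.158 (adjusted p = 0.00018), and Nlrp1b was higher by 1.01 (adjusted p = 0.00057). In bulk samples, a larger number of cells that express a gene and more RNA per cell cannot be told apart. Summed myeloid markers were 439 to 560 RPKM in these non-B and 187 to 339 in these B samples, with 0 of 6 markers at 0 throughout, and their part in the Nlrp1 difference was not tested. In Trp53-/- cells 1 of 5 genes passed, against 18.2% of all genes, Tmem181b-ps with 0.58 (95% interval 0.20 to 0.96, adjusted p = 0.0236; 0.012 to 0.146 over the alternatives tried), while a difference was not detected in Trp53+/+ cells (log2 difference 0.01, 95% interval -0.25 to 0.28). Nlrp1b was higher in non-B cells without p53 as well (1.61, adjusted p = 0.00036), whereas Nlrp1a had 0.41 (95% interval -0.16 to 0.97, adjusted p = 0.32). The response to IR in Trp53+/+ mice differed between the cell types for 2 of 5 genes, against 29.9% of all genes, namely Nlrp1c-ps (non-B minus B, 1.45, adjusted p = 7.6e-05) and Entpd4 (0.42, adjusted p = 0.0251). Without the receptor-rich libraries it was 1.30 for Nlrp1c-ps (adjusted p = 0.0056), and Entpd4 did not pass (0.48, adjusted p = 0.0818).

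Genes that share a pathway with the 5 were counted in lists, which were chosen with earlier results of these data known. Of the 21 other inflammasome genes tested, 0 passed between the genotypes in unstressed B or non-B cells (3 in each with an unadjusted p under 0.05), where 0.0574% and 0.0566% of all genes did. In irradiated non-B cells 11 of 21 were lower without p53 and 0 higher, against 13.2% of all genes lower. Without the receptor-rich libraries 4 of 21 were lower, against 6.71%. The 11 included Nlrp3, Mefv and Nlrp12, which are inflammasome sensors (-1.61, -1.35 and -1.66), Casp1 (-0.80), Casp4 (-1.25) and the cytokine genes Il1b (-1.46), Il1a (-1.10) and Il18 (-0.96). The median log2 difference of the list was -0.64 against 0.05 for all genes. With IR, 7 of 21 rose and 0 fell in Trp53+/+ non-B cells, against 5.71% of all genes that rose, with Il1b at 0.96, Il18 at 0.77, Casp4 at 0.85 and Mefv at 0.87. Without the 3 receptor-rich libraries, which leaves 1 irradiated sample, 0 of 21 passed by limma (7 with an unadjusted p under 0.05). In Trp53-/- non-B cells 0 of 21 passed (1 with an unadjusted p under 0.05). Summed myeloid markers were 474 to 694 RPKM in irradiated Trp53+/+ non-B cells, 439 to 560 in unstressed ones and 472 to 515 in irradiated Trp53-/- non-B cells, and their part in these counts was not tested. In B cells 3 of 21 were lower without p53 after IR and 0 higher, namely Il1b (-1.42), Nlrp1b and P2rx7, the ATP-gated channel (-2.08). Of all genes, 17% were called there in either direction and 1283 of 13945 were lower. Without the receptor-rich libraries 2 of 21 were lower, against 8.73% of all genes.

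Of lysyl oxidase and collagen genes, 13 were tested in B and 11 in non-B cells, and 0 passed between the genotypes in unstressed cells (0 with an unadjusted p under 0.05 in either). At the shares of all genes that passed there, a count of 0 says nothing of the list. After IR, 1 was higher and 1 lower without p53 in B cells, Loxl3 (0.66) and Plod2 (-2.81), which hydroxylates collagen lysines. In non-B cells 5 were lower, Plod2 (-2.29), Plod3 (-0.66), Col4a1 (-1.15), Col4a2 (-1.45) and Fn1 (-0.99). The list median there was -0.66, and -0.79 without the receptor-rich libraries, which leaves 1 irradiated Trp53+/+ sample. All genes called in these contrasts were 17% in B and 20.6% in non-B cells, and 13.2% were called lower in non-B cells. These shares also apply to the next lists in this paragraph. Of 10 other genes of nucleotide and adenosine turnover, 0 passed in unstressed cells (0 with an unadjusted p under 0.05), and Entpd5 was higher without p53 after IR in B (1.01) and non-B cells (0.75), while Entpd1 (-1.09) and Entpd3 (-2.53) were lower in non-B cells, where 0 of the 10 were lower without the receptor-rich libraries. Of 8 other genes of the Tmem181 and Dynlt1 cluster, Dynlt1b alone passed in unstressed cells, and Tulp4 was lower in irradiated B cells (-1.23).

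The p53 pathway list gives the contrast to these values. In unstressed cells 1 of 30 p53 pathway genes passed in B cells and 1 of 31 in non-B cells, both lower without p53. An unadjusted p under 0.05 (limma, either direction) was found for 9 of 30 and 5 of 31. The list medians in unstressed cells were -0.11 and -0.14. Of all genes, 0.0574% and 0.0566% passed there. After IR 24 of 30 and 22 of 31 were lower and 1 and 0 higher, with medians of -2.07 and -1.41. Of all genes, 1283 of 13945 in B and 1865 of 14138 in non-B cells were lower. Without the receptor-rich libraries 24 were lower in B cells, against 8.73% of all genes. The median in non-B cells was then -1.55, with 1 irradiated Trp53+/+ sample left. Cdkn1a, the cyclin-dependent kinase inhibitor p21, went from 1.08 to 89.5 RPKM on average with IR in Trp53+/+ B cells and from 0.626 to 0.644 in Trp53-/- B cells.

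Finally, the genes whose pattern over the 24 samples was most like each of the 5 were listed by Pearson r of log2(RPKM + 0.5) among 13395 genes. These r values describe samples that share libraries and split by genotype. Loxl2 was most like Dynlt1b (0.96), Tmem181b-ps (0.88) and Entpd4 (0.85), and Entpd4 was most like Dynlt1b (0.92), Loxl2 (0.85) and Gm3414 (0.85). Tmem181b-ps was most like Mmrn1 (0.93), Dynlt1b (0.91) and Loxl2 (0.88). Nlrp1c-ps was most like Nlrp1a (0.85), Trpm2 (0.85) and Aloxe3 (0.85), and Nlrp1a was most like Fam20c (0.93), Il12b (0.92) and Kctd11 (0.92). For 3 of the 5 genes, Dynlt1b on chromosome 17 was thus among the closest, whether or not it lay near them.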

How the data were processed

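RNA-Seq of 24 mouse spleen samples was analysed. As deposited by the authors, the values are RPKM per gene. Per the methods and the submitters' processing notes, low-quality bases were masked, reads were aligned to mm9 with TopHat (the notes name TopHat2 2.0.8), duplicates were reduced to 1 copy, reads in UCSC genes were counted with featureCounts 1.4.5, and exon reads served as library size. The files hold 3 decimals and no counts. Depth was estimated from the spacing of low values at 4.74 to 10.97 M reads (58.2% to 70.5% of these values lay within 0.1 read of a whole number, 20% by chance), so approximate reads carry this error.

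Within each cell type, limma 3.58.1 (R 4.3.3) was fitted to log2(RPKM + 0.5) over 12 samples and 4 group means, for genes above 1 RPKM in at least 1 sample, and over all 24 samples for cell type. P-values were adjusted by Benjamini-Hochberg over all genes tested. The fit was tested on simulated data. Sequences and positions came from the mm9 genome with GENCODE vM1, and 96.2% of genes had a position. Python 3.11.15, pandas 2.3.3, numpy 2.4.6 and scipy 1.17.1 did the rest.

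The genes and lists were chosen with earlier results of these data known. Named are the 5 genes, Trp53, neighbours passing in at least 2 of 4 comparisons of genotypes, genes passing in all 4, the 3 genes most like each of the 5, and list members. Replicate numbers were checked as pairs by correlating deviations from group means between treatments and between cell types. In Trp53+/+ non-B cells all 4 pairs lay above 0.1 (0.155 to 0.33). The main fits did not use the pairing, and a replicate block was an alternative only. In Trp53+/+ B cells r was 0.0122 to 0.0917. Alternatives were another pseudocount, filter, scaling or fit, a replicate block, no fold threshold, other windows and leaving out each replicate. A crossed block, the fit without receptor-rich libraries (also for the lists, Nlrp1b and the cell type by IR contrast), the comparison with male-pattern Trp53+/+ libraries alone and the cell type by IR contrast were added after seeing the data.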

Additional observations from a re-analysis of the deposited data

Results flagged for a closer look

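A pair of values stood apart from the other 3 samples of its group by Dixon's ratio, out of 20 groups tested, and chance alone marks about 1 in 20. Entpd4 in Trp53+/+ irradiated B cells was highest at 15.03 RPKM, with the next sample at 14.5. Tmem181b-ps in Trp53+/+ unstressed B cells was highest at 7.914 RPKM, with the next sample at 6.70.

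The IR response differed between the genotypes in limma, in a contrast made up of the differences that chose the genes, for Loxl2 (1.17) and Entpd4 (-0.54) in B cells and for Nlrp1c-ps (1.53) in non-B cells, as Trp53+/+ minus Trp53-/- on the log2 scale. In Trp53+/+ mice it differed between the cell types for Entpd4 (0.42) and Nlrp1c-ps (1.45), as non-B minus B, the former not without receptor-rich libraries (0.48, adjusted p = 0.0818). The causes were not tested.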

How the results depend on the processing

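Of 1908 values recomputed, 35 log2 fold changes, none of which had passed, changed sign. The 465 recomputed genotype differences of the 5 genes kept theirs, but rest on the values that chose the genes. With quantile scaling these were Nlrp1a for IR in Trp53+/+ B cells (-0.11), Loxl2 (0.019) and Nlrp1c-ps (0.067) for IR in Trp53-/- non-B cells, and, for cell type, Loxl2 (-0.31) and Tmem181b-ps (-0.30, limma, adjusted p = 0.0461) in Trp53+/+ and Nlrp1a (-0.0039) in Trp53-/-. Without receptor-rich libraries they were Nlrp1a for IR in Trp53+/+ B cells (-0.17), and Tmem181b-ps for IR in Trp53+/+ non-B cells (-0.33) and in the interaction there (-0.18). Leaving out 1 replicate changed the sign, with lowest to highest values, for IR in Trp53+/+ B cells Nlrp1c-ps (-0.0396 to 0.15), Nlrp1a (-0.025 to 0.17), for IR in Trp53-/- B cells Entpd4 (-0.0297 to 0.28), Nlrp1c-ps (-0.0041 to 0.0014), for IR in Trp53+/+ non-B cells Entpd4 (-0.065 to 0.082), Tmem181b-ps (-0.081 to 0.13), for IR in Trp53-/- non-B cells Entpd4 (-0.12 to 0.0052), Loxl2 (-0.41 to 0.25), Nlrp1c-ps (-0.10 to 0.067), Tmem181b-ps (-0.37 to 0.084), for the interaction in B cells Nlrp1c-ps (-0.038 to 0.15), for the interaction in non-B cells Loxl2 (-0.044 to 0.62), Tmem181b-ps (-0.067 to 0.39), Entpd4 (-0.0082 to 0.14), for cell type in Trp53+/+ Tmem181b-ps (-0.021 to 0.077), for cell type in Trp53-/- Loxl2 (-0.75 to 0.051), Entpd4 (-0.23 to 0.077). The number of the 5 genes that passed moved as follows, and the cause was not tested. For IR in Trp53-/- B cells (1), it was 2 with pseudocount 1, median-ratio scaling, 1 fit of all 24 samples or without receptor-rich libraries, and 0 to 2 leaving out 1 replicate. For IR in Trp53+/+ non-B cells (1), it was 2 with pseudocount 1, median-ratio or quantile scaling, 1 fit of all 24 samples, no variance trend or the crossed block, and 1 to 2 leaving out 1 replicate. For IR in Trp53+/+ B cells (0), it was 1 without the fold threshold. For the interaction in B cells (2), it was 1 without a filter, with quantile scaling or without receptor-rich libraries, and 1 to 3 leaving out 1 replicate. For the interaction in non-B cells (1), it was 0 without receptor-rich libraries and 0 to 1 leaving out 1 replicate. For cell type in Trp53-/- (1), it was 2 with pseudocount 0.1, 0 with pseudocount 1 or quantile scaling, and 0 to 1 leaving out 1 replicate, and in Trp53+/+ (2) it was 1 with quantile scaling. The neighbours counted were 18, 7 and 3 on chromosomes 11, 14 and 17 without the fold threshold, 5, 2 and 1 within 0.5 Mb, 1 on chromosome 17 with the filter on Trp53+/+ samples, 2 on chromosome 14 without receptor-rich libraries, and 6 to 11, 2 to 4 and 1 to 3 leaving out 1 replicate.

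With the replicate block, the interaction count in B cells, where samples share only a number, was 1 (Loxl2, limma, adjusted p = 0.055; 12 of 23 alternatives gave Loxl2 a value above 0.05, in a range of 0.0236 to 0.234), and the pairing changed no other call on the 5 genes. In Trp53-/- non-B cells the same-number correlation was -0.256, and crossing these numbers gave the count of 2 named above. Depth limits Nlrp1c-ps in Trp53-/- cells, at about 1 read per library in B and about 2.96 to 6.94 in non-B cells.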

Other observations

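Of the 10 genes on chromosome 11 whose genotypes stayed apart in all 4 comparisons, 4 others lay farther than 2 Mb from Trp53 on the side of Nlrp1a and were named after their values were seen. 4930563E22Rik (2.63 Mb), Rapgefl1 (29.3 Mb) and Mettl23 (47.3 Mb) were above Trp53+/+, and Abr (6.93 Mb) was below. Zfp62, on the other side of Trp53 (-20.38 Mb) and also named after its values were seen, was above.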
